A study of Mus musculus with 7 samples.

Results

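The 29 genes described here encode enzymes and regulators of cholesterol and fatty acid synthesis, and were taken by symbol from a table of 21892 genes measured by bulk RNA sequencing in 7 libraries of subcutaneous mouse tumor. All 29 symbols were found, and all 29 had a mean of at least 1 TPM (transcript abundance scaled for gene length and library total), the minimum set for comparing genes. The sterol branch comprises 18 enzymes, from Acat2 to Dhcr7. The fatty acid branch comprises Acly, Acaca, Fasn, Elovl6, Scd1 and Scd2. Srebf1, Srebf2, Insig1, Stard4 and Acss2 were described on their own.

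All tumors carry Egfr with exon 19 deleted and had been passaged subcutaneously in C57BL/6 mice, a strain with an intact immune system. One group was given vehicle and sampled at day 3. Gefitinib, which inhibits the kinase activity of EGFR, was given for 3 or for 14 days in another 2. The last 4 groups first received gefitinib for 14 days, so that all tumors of day 21 share this treatment, and then, for 7 days, vehicle, DC101 (an antibody against mouse VEGFR2), 4H2 (by the series title the antibody against PD-1) or DC101 with 4H2. For the vehicle groups of days 3 and 21 the titles say vehicle, while the treatment field records that nothing was given. Each group is 1 library, and the sources used here do not give the number of animals behind it.

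No test was made, because no group has replicates, and each difference below is between 2 tumors or pools of tumors. The depth of the libraries is unknown, because TPM does not retain it. Differences are on the log2 scale after adding 1 to each TPM, which understates the change of genes with low TPM. Genes were called higher or lower from a 2-fold difference on this scale, and the share of all 13997 comparable genes that did the same is given beside the first count of each comparison.

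The labelled tissue is lung tumor, and epithelial markers differed widely between libraries. The summed TPM of 12 such markers was 4423.2 in vehicle at day 3, 1370.5 and 2250.5 at days 3 and 14 of gefitinib, 8354.5 in vehicle at day 21, 5593.3 with DC101, 54.4 with 4H2 and 431.5 with both antibodies. Epcam, an epithelial adhesion molecule, was at 3 TPM with 4H2 and 20.8 with both antibodies, against 80.9 to 571.2 in the other libraries. Skeletal muscle markers had their highest sums, 87413.1 and 86785.1 TPM, in these same libraries, against 316 to 18629.4 elsewhere. The libraries of 4H2 and of both antibodies therefore stand apart from the rest. Their counts against vehicle are given on their own, whereas ranges and orders over the 7 libraries include them. In bulk tissue, fewer cells of a type and less RNA per cell cannot be told apart.

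Cholesterol is built from acetyl-CoA through mevalonate, squalene and lanosterol, whereas fatty acids are built from the same acetyl-CoA by carboxylation, chain assembly, elongation and desaturation. Transcription of both branches is driven by the SREBP factors encoded by Srebf1 and Srebf2, which are held in the endoplasmic reticulum by INSIG proteins when sterols are plentiful and released when sterols are scarce. Growth factor signalling through PI3K and mTOR is known to raise SREBP activity. Lung alveolar type 2 cells use the fatty acid branch for surfactant lipids, and fat cells use it for stored lipid.

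SREBP factors bind sterol regulatory elements, commonly next to NF-Y, which recognizes CCAAT, and Sp1, which recognizes GGGCGG. RefSeq promoters in GRCm38.p6, reaching from 250 bases before to 50 after a gene's start, could be matched for 23 of the 29 genes. Fdps, Fdft1, Sqle, Stard4, Scd1 and Scd2 had no match and were not searched. Both strands were searched, and a gene was counted when any of its promoters held the letters. TCACNCCAC, a core of the sterol regulatory element in which N is any base, was found in 1 of the 23 genes, Hmgcs1, and in 1.44% of the 27025 genes with a promoter. CCAAT was in 20 of 23, against 41.1% of all genes, and GGGCGG in 19 of 23, against 38.2%. By branch, 14 of 15 sterol enzymes and 2 of 4 fatty acid genes held CCAAT, and 14 of 15 and 1 of 4 held GGGCGG. A match is a description of the letters and not a binding site.

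The promoter of Hmgcs1 is shown because it holds the only TCACNCCAC among the matched genes. Those of Idi1 and Fasn were chosen after the values were seen. Of the matched genes with CCAAT, they had the widest range of TPM in their branch. Each is the 250 bases before the start, 5′ to 3′ on the gene's own strand, with TCACNCCAC, CCAAT and its reverse complement ATTGG in capitals. The windows are chr13:119690101-119690350 on the plus strand for Hmgcs1, chr13:8885356-8885605 on the plus strand for Idi1 and chr11:120824548-120824797 on the minus strand for Fasn, where the start is that of a RefSeq transcript inside the annotated span of the gene.
Hmgcs1: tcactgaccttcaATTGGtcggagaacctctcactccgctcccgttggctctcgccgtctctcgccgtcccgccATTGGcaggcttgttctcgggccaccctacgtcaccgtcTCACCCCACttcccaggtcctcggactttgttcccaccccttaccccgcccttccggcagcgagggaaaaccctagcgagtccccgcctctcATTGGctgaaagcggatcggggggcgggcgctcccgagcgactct
Idi1: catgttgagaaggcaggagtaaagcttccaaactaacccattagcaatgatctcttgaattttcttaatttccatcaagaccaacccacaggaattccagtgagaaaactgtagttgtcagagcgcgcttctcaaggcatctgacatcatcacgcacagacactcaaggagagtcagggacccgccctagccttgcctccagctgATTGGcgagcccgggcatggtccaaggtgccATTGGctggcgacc
Fasn: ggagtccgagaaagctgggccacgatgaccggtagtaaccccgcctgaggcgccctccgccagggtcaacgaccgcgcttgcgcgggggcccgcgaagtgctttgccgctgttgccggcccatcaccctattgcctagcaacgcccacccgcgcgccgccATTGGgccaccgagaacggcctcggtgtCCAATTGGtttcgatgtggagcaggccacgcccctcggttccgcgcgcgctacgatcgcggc
In Hmgcs1 the sterol element begins 137 bases before the start, and 3 CCAAT motifs begin 237, 176 and 45 bases before it. Idi1 has 2, beginning 45 and 14 bases before the start. Fasn has 3, beginning 90, 62 and 59 bases before it, of which the last 2 overlap in 1 run of capitals.

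Sterol enzymes were lower in both gefitinib libraries than in vehicle at day 3, and their levels in the day 21 vehicle library were again near those of vehicle at day 3, with a median difference of -0.05 between the 2 vehicle libraries. The summed TPM of the 18 enzymes was 950.1 in vehicle at day 3, 307.6 and 379.8 at days 3 and 14 of gefitinib, 860.5 in vehicle at day 21, 745.2 with DC101, 228.1 with 4H2 and 292.4 with both antibodies. After 3 days of gefitinib 16 of 18 enzymes were lower and none higher, with a median difference of -1.65. Of all genes, 14.4% were lower and 20.8% higher, with a median of -0.09. At day 14, 15 of 18 were lower and none higher, with a median of -1.65 again, beside 12.7% lower, 22.7% higher and a median of 0.03 over all genes. Both comparisons use the same vehicle library, that of day 3. No vehicle group was sampled at day 14, so treatment there is not separated from the longer time in the animal.

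In the early, mevalonate part of the pathway, 6 of 7 enzymes were lower in both gefitinib comparisons, and Pmvk was the exception. Hmgcs1 (chromosome 13, 119690351 to 119708260), the synthase that makes HMG-CoA, was at 113.9 TPM in vehicle at day 3, 33.2 and 28.7 at days 3 and 14 of gefitinib, 86.4 in vehicle at day 21, 77.7 with DC101, 32.8 with 4H2 and 37.2 with both antibodies. Idi1 (chromosome 13, 8885606 to 8892396), which isomerizes the activated isoprene unit, was at 76.6, 5.5, 6.6, 57.5, 45.4, 12 and 14.9 TPM across these 7 libraries. The vehicle libraries and DC101 were high and the other 4 low for both genes, and Idi1 at day 3 of gefitinib was 13.9-fold below vehicle. Fdps (chromosome 3, 89093588 to 89101967), which joins isoprene units into farnesyl diphosphate, was at 144.1, 16.7, 17.2, 145.7, 116.8, 18.3 and 33 TPM in this order. Its levels in the vehicle libraries of days 3 and 21 differed by 0.02 on the log2 scale.

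Pmvk (chromosome 3, 89454541 to 89469014), the phosphomevalonate kinase of the same segment, did not share this order. It was at 67.7, 75.1, 128.8, 64.7, 52.2, 19.8 and 26.6 TPM, and was the only one of the 18 enzymes with its highest level at day 14 of gefitinib. Of the other mevalonate enzymes, Acat2, the cytosolic thiolase, ranged from 6.9 to 64.8 TPM, the kinase Mvk from 15.8 to 41.7 and the decarboxylase Mvd from 13.1 to 63.3. At day 3 of gefitinib these 3 lay 5.68, 2.54 and 3.04-fold below vehicle. Acat2 has a close copy, Acat3, which was at 1.2 TPM or less in every library, and reads shared by such copies could have been assigned to either.

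The 3 enzymes that make and cyclize squalene were lower by a median of -2.07 at day 3 of gefitinib and -1.76 at day 14, all 3 by at least 2-fold each time. Sqle (chromosome 15, 59315092 to 59331193), squalene epoxidase, a rate-controlling oxygen-dependent step, was at 89.6 TPM in vehicle at day 3, 6.7 and 13.8 under gefitinib, 96.3 in vehicle at day 21, 91.9 with DC101, 4.9 with 4H2 and 12.8 with both antibodies. It had the widest range of the 18 enzymes, 19.7-fold. Fdft1, squalene synthase, ranged from 3.3 TPM at day 3 of gefitinib to 17.2 in vehicle at day 21. Lss, lanosterol synthase, ranged from 3.5 TPM with 4H2 to 25 in vehicle at day 3.

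The 8 enzymes that turn lanosterol into cholesterol had smaller differences, with medians of -1.35 and -1.27 at days 3 and 14 of gefitinib, and 7 and 6 of them lower. Cyp51 (chromosome 5, 4080674 to 4104697), the lanosterol demethylase, was at 33.6, 8.2, 11, 40.1, 33.7, 9.5 and 11.8 TPM in the order above. Dhcr7 (chromosome 7, 143823167 to 143848410), the reductase at the end of the pathway, was at 38.5, 15.7, 18.6, 37.8, 35.1, 17.6 and 19.8 TPM. Both again had their 3 highest values in the vehicle and DC101 libraries. Ebp (chromosome X, 8185329 to 8193512), a sterol isomerase, departed from this order at 59.3, 50, 55.6, 49.2, 55.6, 20.8 and 27.4 TPM: it was close to vehicle under gefitinib and low only with 4H2 and with both antibodies.

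Among the remaining late enzymes, the C4 demethylation genes Msmo1, Nsdhl and Hsd17b7 peaked in vehicle at day 21, at 52.7, 32.7 and 13.1 TPM. Hsd17b7, at 5.5 TPM in vehicle at day 3, was the only sterol enzyme at least 2-fold higher in the day 21 than in the day 3 vehicle library, while Acat2, at 30.3 against 64.8, was the only one lower. Of all genes 15.3% were higher and 3.11% lower in that comparison. The reductase Tm7sf2 ranged from 4.6 to 19.7 TPM, and the desaturase Sc5d from 5.6 to 18.4. Between days 3 and 14 of gefitinib, none of the 18 enzymes was called higher or lower. Of all genes 4.93% were higher at day 14 and 2.73% lower. Before adding 1 to each TPM, Sqle and Hsd17b7 were each 2.06-fold higher at day 14.

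**Figure D1:**
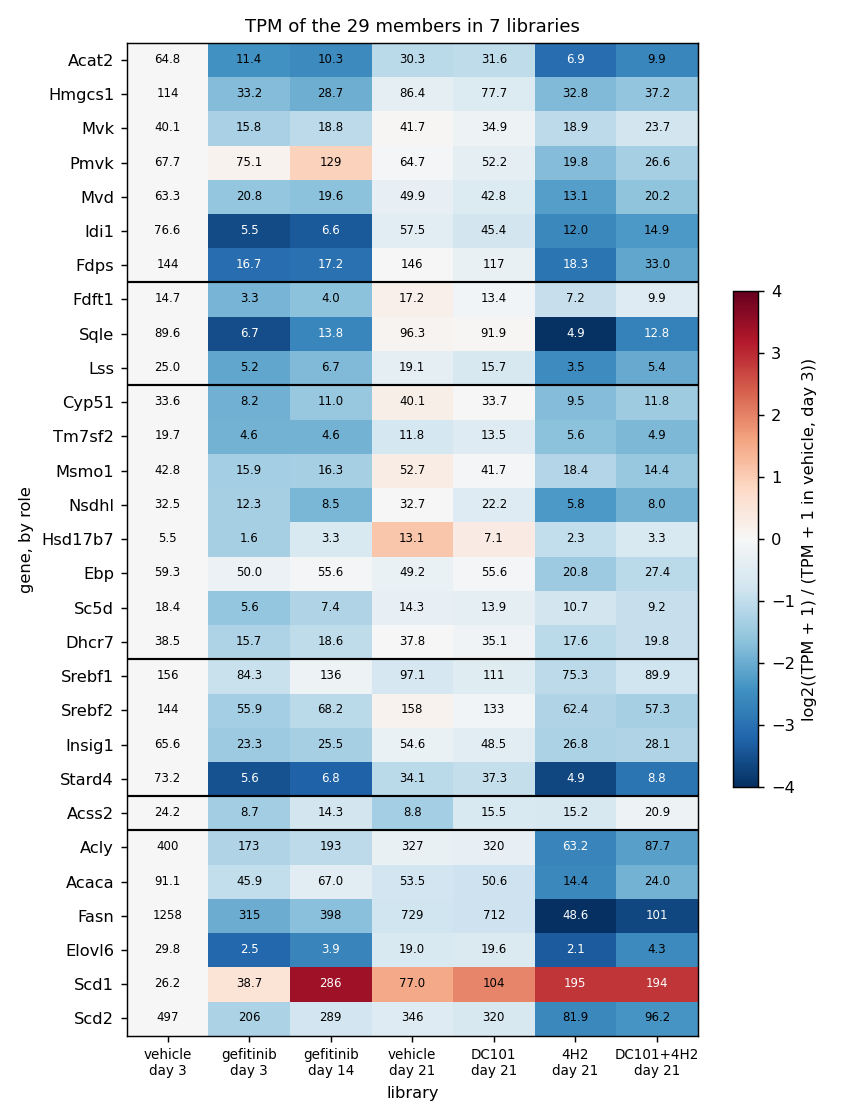
TPM of the 29 genes (rows, grouped by role: mevalonate, squalene, late sterol steps, regulators and transport, Acss2, fatty acid branch) in the 7 libraries (columns); numbers are TPM, and colors give the log2 difference from vehicle at day 3 after adding 1 to each TPM. Blue columns appear for both gefitinib libraries, 4H2 and both antibodies, with Pmvk highest at day 14 of gefitinib (128.8 TPM), Ebp near its vehicle level under gefitinib, and Scd1 red at day 14 (286.1 TPM against 26.2 in vehicle at day 3).

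After gefitinib was withdrawn for 7 days, against day 14 of gefitinib, 14 of 18 sterol enzymes were higher and none lower, with a median of 1.51. Of all genes 7.62% were higher and 7.89% lower, with a median of -0.01. Fdps had the largest difference at 3.01, followed by Idi1 at 2.94 and Sqle at 2.72. The 4 enzymes not called were Pmvk at -0.98, Ebp at -0.17, Sc5d at 0.87 and Dhcr7 at 0.99. This comparison shares its day 14 library with the one above, and withdrawal is not separated from 7 further days in the animal.

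Antibody treatment was compared with vehicle at day 21, and the 3 comparisons share that library. With DC101 none of the 18 sterol enzymes was 2-fold lower or higher, where 1.11% of all genes were lower and 3.12% higher. The median was -0.25, against -0.05 over all genes, and 15 of 18 enzymes lay below vehicle, from -0.80 for Hsd17b7 to 0.18 for Tm7sf2. With 4H2, 16 of 18 were lower and none higher, with a median of -1.76, beside 20% lower, 10.9% higher and a median of -0.21 over all genes. Sqle was 19.7-fold and Fdps 7.96-fold below vehicle, whereas Sc5d was at 10.7 against 14.3 TPM. With both antibodies 13 of 18 were lower and none higher, with a median of -1.39, beside 17.0% lower, 11.7% higher and a median of -0.17 over all genes.

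A rescaling by the median of ratios moved the all-gene median to 0.02 with 4H2 and to 0.05 with both antibodies. It moved the shares of all genes to 15.6% lower and 15.0% higher with 4H2, and to 12.6% lower and 15.3% higher with both antibodies. Under it 12 and 11 of the 18 enzymes were still at least 2-fold lower in these comparisons. Set against 4H2 alone, the library of both antibodies had 1 sterol enzyme higher, Sqle at 12.8 against 4.9 TPM, and none lower, beside 4.94% higher and 0.464% lower of all genes. Set against DC101, it had 11 of 18 sterol enzymes and 5 of 6 fatty acid genes lower and none higher, beside 14.3% lower and 11.1% higher of all genes.

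**Figure D2:**
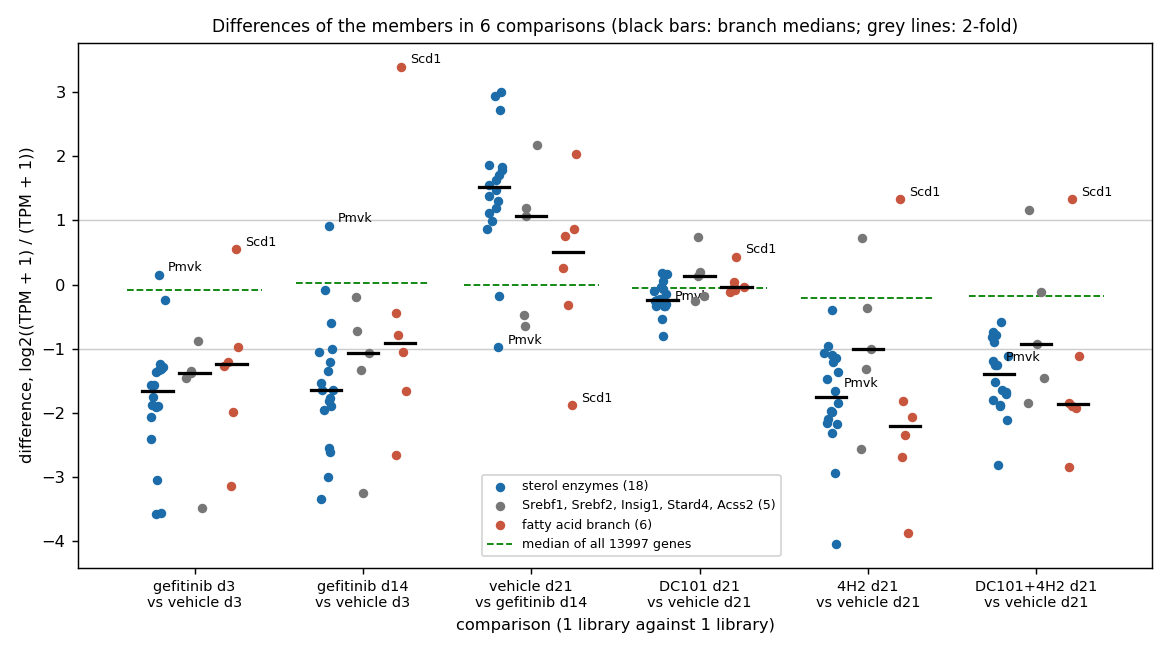
Log2 differences of the 29 genes in the 6 comparisons, as log2((TPM + 1) / (TPM + 1)) between 2 libraries: each point is a gene, black bars are medians of the sterol enzymes, of the 5 other genes and of the fatty acid branch, green dashes the median of all 13997 genes, and grey lines 2-fold. Sterol medians lie at -1.65 in both gefitinib comparisons, at 1.51 after withdrawal, at -0.25 with DC101, and at -1.76 and -1.39 with 4H2 and with both antibodies.

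The sums of epithelial markers and of proliferation genes were lower under gefitinib than in vehicle at day 3, as the sterol sum was. They were also lower with 4H2 and with both antibodies than in vehicle at day 21. In the vehicle libraries of days 3 and 21 the epithelial sum was 4423.2 and 8354.5 TPM. The sterol sum there was 950.1 and 860.5 TPM. Per 100 TPM of the 12 epithelial markers, the 18 enzymes summed to 21.5 TPM in vehicle at day 3, 22.4 and 16.9 at days 3 and 14 of gefitinib, 10.3 in vehicle at day 21 and 13.3 with DC101. At day 3 of gefitinib this ratio was thus no lower than in vehicle, because the epithelial sum was lower too, with 11 of 12 markers lower by 2-fold and a median of -1.65. With 4H2 and with both antibodies the ratio was 419 and 67.8, since the epithelial sum was lower there by more than the sterol sum. The 12 proliferation genes, such as the cell cycle marker Mki67, summed to 1272 TPM in vehicle at day 3, 307.9 and 281.1 under gefitinib, 824.6 in vehicle at day 21, 783.1 with DC101, 123.9 with 4H2 and 239.1 with both antibodies. Per 100 TPM of them the sterol sum was 74.7 in vehicle at day 3, 99.9 and 135 at days 3 and 14 of gefitinib, 104 in vehicle at day 21 and 95.2 with DC101. With 4H2 and with both antibodies it was 184 and 122. A list of 12 housekeeping genes had medians of -0.45 and -0.33 at days 3 and 14 of gefitinib, 0.29 after withdrawal, -0.02 with DC101, and -0.49 and -0.48 with 4H2 and with both antibodies. The part of epithelial content or of proliferation in the sterol differences was not tested.

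**Figure D3:**
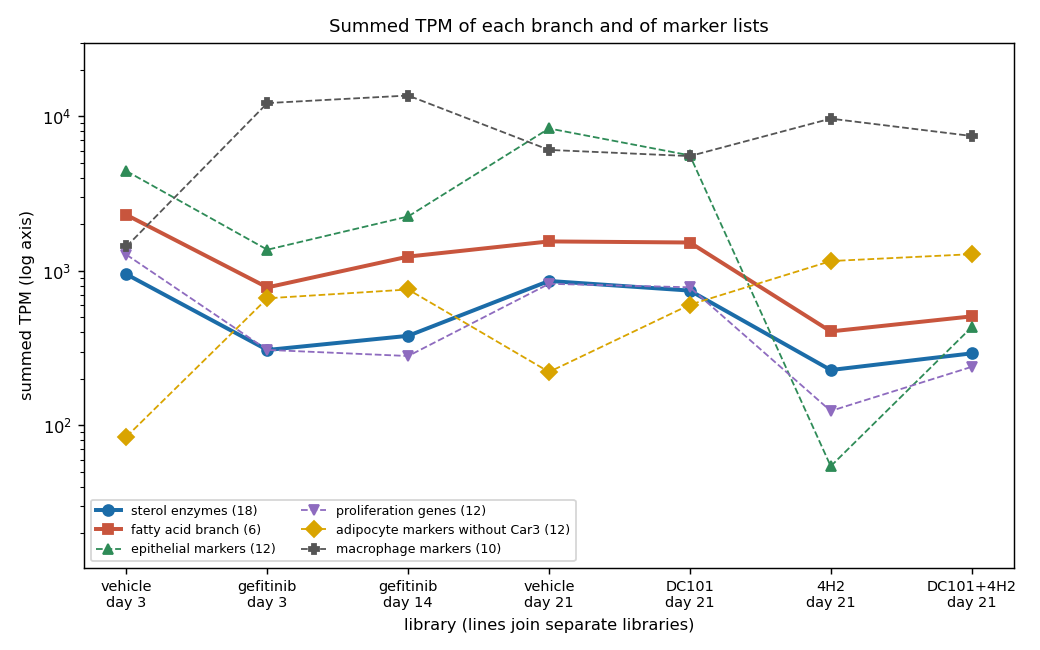
Summed TPM (log axis) of the sterol enzymes, the fatty acid branch and 4 lists of marker genes in the 7 libraries; lines join separate libraries and are a guide to the eye. The sterol sum is 950.1 TPM in vehicle and 307.6 in gefitinib at day 3, where the epithelial sum goes from 4423.2 to 1370.5, and with 4H2 the epithelial sum drops to 54.4 while the sterol sum is at 228.1.

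Of the regulators, Srebf2 had its 3 highest levels in the vehicle and DC101 libraries, like most sterol enzymes, and Srebf1 did not. Srebf2 (chromosome 15, 82147269 to 82205379), which encodes the factor that mainly drives sterol genes, was at 144 TPM in vehicle at day 3, 55.9 and 68.2 under gefitinib, 157.8 in vehicle at day 21, 132.7 with DC101, 62.4 with 4H2 and 57.3 with both antibodies. Srebf1 (chromosome 11, 60199084 to 60224186), whose product mainly drives fatty acid genes, varied less, at 156, 84.3, 135.5, 97.1, 111.3, 75.3 and 89.9 TPM. Srebf2 was at least 2-fold lower in both gefitinib comparisons and with both 4H2 treatments, and Srebf1 in none of the 6 comparisons. The ratio of Srebf1 to Srebf2 was highest at day 14 of gefitinib, 1.99, and lowest in vehicle at day 21, 0.615.

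Insig1, which retains SREBP in the endoplasmic reticulum and is itself a target of it, was at 65.6 TPM in vehicle at day 3, 23.3 and 25.5 under gefitinib, 54.6 in vehicle at day 21, 48.5 with DC101, 26.8 with 4H2 and 28.1 with both antibodies. Stard4, a carrier that moves sterol between membranes, had a wider range, at 73.2, 5.6, 6.8, 34.1, 37.3, 4.9 and 8.8 TPM. Its level in the day 21 vehicle library was 2.15-fold below that of day 3, so that, unlike Sqle or Fdps, it did not return to the day 3 level. Acss2, which makes acetyl-CoA from acetate, followed neither branch at 24.2, 8.7, 14.3, 8.8, 15.5, 15.2 and 20.9 TPM. It was lowest at day 3 of gefitinib and in vehicle at day 21, and 1.16 higher on the log2 scale with both antibodies than in that vehicle.

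In the fatty acid branch 5 of 6 genes lay below their vehicle library in both gefitinib comparisons and with 4H2 or both antibodies, as most sterol enzymes did, and Scd1 lay above it. At day 3 of gefitinib 4 of 6 were lower and none higher, with a branch median of -1.23. At day 14, 3 were lower and Scd1 was higher, with a median of -0.91. After withdrawal Elovl6 was higher, Scd1 was lower and the median was 0.51. With DC101 none was 2-fold apart, at a median of -0.03. With 4H2 and with both antibodies 5 were lower and Scd1 was higher, with medians of -2.21 and -1.86. The shares of all genes are those given for the sterol enzymes, and no test of one branch against the other is possible with 1 library per group.

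Fasn (chromosome 11, 120805958 to 120825166), the fatty acid synthase, had the highest level of all 29 genes, and the widest range over all 7 libraries. That range rests on the libraries of 4H2 and of both antibodies, and at day 3 of gefitinib Fasn was 3.99-fold below vehicle. It was at 1257.6 TPM in vehicle at day 3, 315.2 and 398.3 under gefitinib, 728.8 in vehicle at day 21, 711.9 with DC101, 48.6 with 4H2 and 100.8 with both antibodies. Thus it was 25.9-fold lower with 4H2 than in vehicle at day 3, and unlike Fdps or Sqle it stayed 1.73-fold below the day 3 level in vehicle at day 21. Acly (chromosome 11, 100476352 to 100528000), which supplies cytosolic acetyl-CoA to both branches, was at 400.4, 173.4, 192.9, 326.8, 320.5, 63.2 and 87.7 TPM. Both genes were lower with 4H2 than under gefitinib, whereas Hmgcs1 was at 28.7 to 33.2 TPM in all 3 of these libraries.

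Acaca (chromosome 11, 84129635 to 84401651), the carboxylase that commits acetyl-CoA to fatty acids, was at 91.1, 45.9, 67, 53.5, 50.6, 14.4 and 24 TPM. Its difference at day 3 of gefitinib was -0.97, just short of 2-fold, and after withdrawal it was -0.32, opposite to Fasn at 0.87. Elovl6 (chromosome 3, 129532386 to 129638495), which lengthens palmitate, was at 29.8, 2.5, 3.9, 19, 19.6, 2.1 and 4.3 TPM, with its 3 highest values in the vehicle and DC101 libraries as for Sqle. The ratio of Fasn to Acaca was 13.8 in vehicle at day 3, 13.6 in vehicle at day 21 and 14.1 with DC101, but 6.87 and 5.94 under gefitinib, and 3.38 and 4.2 with 4H2 and with both antibodies. Fasn and Acaca, the 2 central enzymes of the branch, thus differed in how far they were lower.

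Scd1 and Scd2, which put the first double bond into saturated fatty acids, lie beside each other on chromosome 19 (44394450 to 44407709 and 44293676 to 44306864) and differed in opposite directions in each of the 6 main comparisons. Between days 3 and 14 of gefitinib both were higher at day 14, by 2.85 and 0.49 on the log2 scale. Scd1 was at 26.2 TPM in vehicle at day 3, 38.7 and 286.1 at days 3 and 14 of gefitinib, 77 in vehicle at day 21, 104.2 with DC101, 195.4 with 4H2 and 194.5 with both antibodies. Scd2 was at 496.7, 205.8, 289.3, 346, 319.5, 81.9 and 96.2 TPM. The ratio of Scd1 to Scd2 was 0.0527 in vehicle at day 3, 0.989 at day 14 of gefitinib, and 2.39 and 2.02 with 4H2 and with both antibodies. Scd1 made up 1.14% of the TPM of the branch in vehicle at day 3, 23.1% at day 14 of gefitinib and 48.2% with 4H2. The neighbouring paralogs Scd3 and Scd4 were at 2.3 TPM or less in every library.

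Fat tissue is another possible source of this branch, and part of its marker list had the same 3 highest libraries as Scd1, though not in the same order. Adipoq, the adipokine adiponectin, was at 0.2 TPM in vehicle at day 3, 4.4 and 23.4 at days 3 and 14 of gefitinib, 3.1 in vehicle at day 21, 8.5 with DC101, 31.3 with 4H2 and 33.4 with both antibodies. Plin1, which coats fat droplets, was at 0.2, 4.9, 20.3, 2.9, 8, 22.6 and 25.8 TPM, and Cfd, adipsin, at 7, 71.2, 376.8, 50.9, 163.9, 402.6 and 403.7. Day 14 of gefitinib, 4H2 and both antibodies were the 3 highest libraries for Scd1. They were so too for 7 of the 12 adipocyte markers above 0, namely Adipoq, Plin1, Cfd, Retn, Lep, Cidec and Lipe. For Lipe the margin was small, at 26.6 TPM with 4H2 against 25.9 at day 3 of gefitinib. How many of all genes have the same 3 highest libraries was not counted, so whether 7 of 12 is unusual is unknown. The other 5 markers did not have the 3 highest libraries of Scd1. Fabp4 and Pparg were highest at day 3 of gefitinib, at 166.6 and 17.4 TPM, and Lpl was at 363.7 TPM there against 153.7 at day 14. Plin4 and Car3 were higher with DC101, at 26 and 892.5 TPM, than at day 14 of gefitinib, at 23.2 and 314.3. Ucp1, the defining gene of brown fat, was listed at 0 in all 7 libraries.

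The other 5 genes of the branch did not follow the fat markers. The 13 adipocyte markers summed to between 110.8 TPM in vehicle at day 3 and 8092 with 4H2, of which Car3, also a muscle gene, gave 6934.4. Without Car3 the sum was 84.5, 664.5, 757.6, 221.7, 603.6, 1157.6 and 1282.5 TPM in the usual order of libraries. From vehicle to gefitinib at day 3 this sum thus went from 84.5 to 664.5 TPM, while Scd1 went from 26.2 to 38.7. Of the 664.5 TPM, Lpl gave 363.7 and Fabp4 166.6, with Adipoq at 4.4 and Plin1 at 4.9. Per 100 TPM of 10 macrophage markers this adipocyte sum was 5.87, 5.45, 5.55, 3.65, 10.9, 12 and 17.2 in the same order of libraries. How far it measures fat at day 3 of gefitinib was not tested. Fasn, Acly, Acaca, Elovl6 and Scd2 were all lowest with 4H2, where this sum was the second highest, and all highest in vehicle at day 3, where it was the lowest. Between DC101 and vehicle at day 21 the sum was 603.6 against 221.7 TPM, while Fasn was at 711.9 against 728.8 and Scd1 at 104.2 against 77. The part of fat tissue in the Scd1 differences was not tested.

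Markers of sebaceous gland, another lipid-making tissue of skin, were low, with Awat2 between 0.2 and 1.2 TPM and Awat1 at 2 TPM or less. The 8 markers summed to between 2.7 TPM in vehicle at day 3 and 25.6 at day 14 of gefitinib, of which Mc5r gave 24.5. Alveolar type 2 markers, such as the surfactant gene Sftpb, summed to 20758 TPM in vehicle at day 3, 8786.5 and 10982.3 under gefitinib, 15016.7 in vehicle at day 21, 17660.8 with DC101, 246 with 4H2 and 913 with both antibodies. Per 100 TPM of these 11 markers, the fatty acid branch without Scd1 summed to 11, 8.45, 8.66, 9.82 and 8.05 TPM in the first 5 of these libraries, and to 85.4 and 34.3 in the last 2. In the first 5 libraries this ratio ran from 8.05 to 11, while the sum of the 5 genes itself ran from 742.8 to 2276 TPM. The sterol sum per 100 TPM of the same markers ran from 3.46 to 5.73 there. Per 100 TPM of the epithelial markers, the 5 genes ran from 17.6 to 54.2. Sftpc and Sftpb gave 8483.5 and 8417.7 TPM of the alveolar type 2 sum in vehicle at day 3. What part alveolar type 2 cells had in the levels of the 5 genes was not tested.

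**Figure D4:**
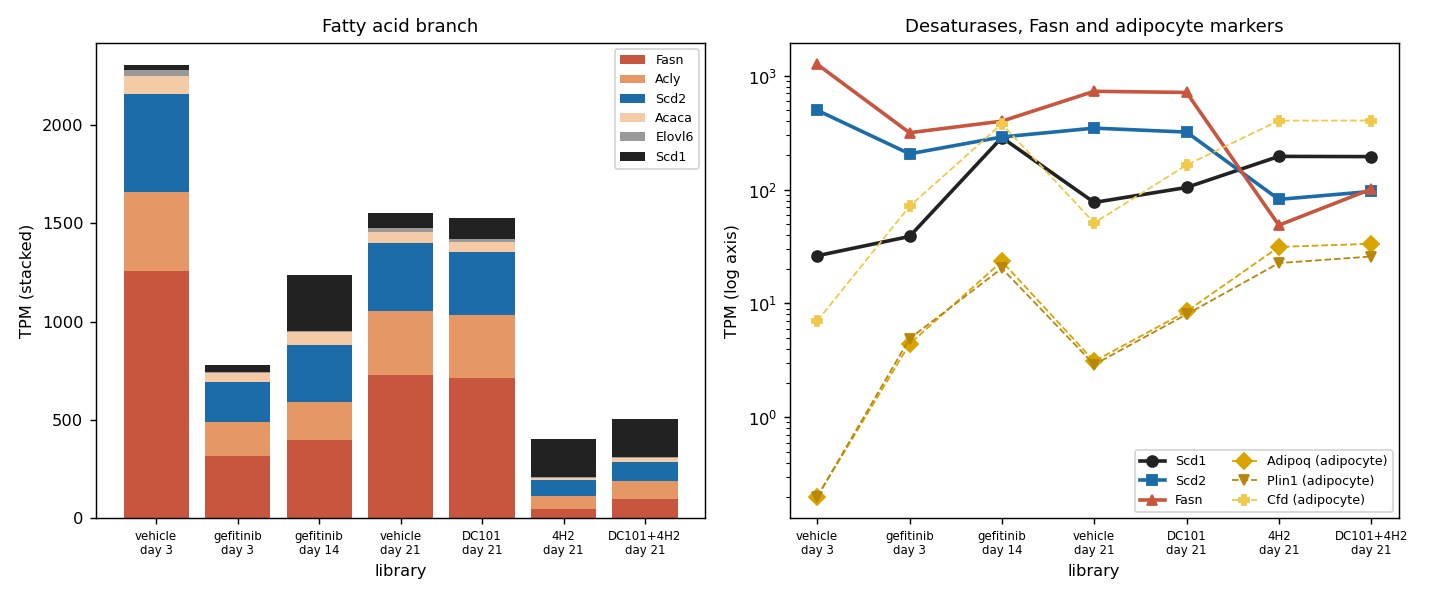
Left, stacked TPM of the 6 genes of the fatty acid branch in the 7 libraries; right, TPM on a log axis of Scd1, Scd2, Fasn and the adipocyte markers Adipoq, Plin1 and Cfd. Fasn shrinks from 1257.6 TPM in vehicle at day 3 to 48.6 with 4H2, while Scd1 is highest at day 14 of gefitinib (286.1 TPM), where Adipoq (23.4), Plin1 (20.3) and Cfd (376.8) are also high. Other adipocyte markers, not drawn, differ from these: Fabp4 and Lpl are at 166.6 and 363.7 TPM at day 3 of gefitinib, against 81.8 and 153.7 at day 14.

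Other genes of these pathways were taken from lists that do not overlap the 29. Scap, the SREBP escort protein, stayed between 44 and 76.9 TPM in the 7 libraries, a narrower range than that of Srebf2 or Insig1.

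Of 23 comparable genes of fatty acid desaturation, elongation, activation and storage, 8 were lower and 1 higher at day 3 of gefitinib, and 7 lower and 5 higher at day 14. Of all genes 14.4% were lower and 20.8% higher at day 3, and 12.7% and 22.7% at day 14. Fads2, a desaturase of polyunsaturated fatty acids, was at 191.4 TPM in vehicle at day 3, 29.6 and 38 under gefitinib, 132 in vehicle at day 21, 119.1 with DC101, 11.8 with 4H2 and 21.2 with both antibodies. Acsl3, an acyl-CoA synthetase, was at 14.7 TPM at day 3 of gefitinib against 75.6 in vehicle. After withdrawal 4 genes were higher, among them Fads2, Acsl3 and Me1, and 2 lower, among them Acsl1, beside 7.62% higher and 7.89% lower of all genes.

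With the antibodies this list divided. With DC101 3 of the 23 genes were higher and none lower, beside 3.12% higher and 1.11% lower of all genes. Among the higher ones was Acacb, the carboxylase isoform of muscle and fat, at 16.2 against 6.8 TPM. With 4H2 7 were higher and 10 lower, and with both antibodies 8 higher and 10 lower. Among the lower ones Acsl4, another acyl-CoA synthetase, was at 32.5 and 36.9 TPM against 182.4 in vehicle. Acacb was at 60.9 and 71.9 TPM with 4H2 and with both antibodies, Mlxipl, the glucose-sensing factor ChREBP, at 46.6 and 31.7 against 2.6 in vehicle, and Thrsp, a lipogenic protein abundant in fat, at 12.4 and 21.6 against 0.2. Acacb was thus higher than in any of the other 5 libraries while its paralog Acaca was at its 2 lowest levels, in the libraries with the highest muscle and adipocyte marker sums. The part of those tissues was not tested.

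Several genes of sterol export and storage were higher under gefitinib, opposite to the synthesis genes. Of 13 such genes, 7 were higher and 1 lower at day 3 of gefitinib, and 8 higher and 1 lower at day 14. Over all genes, 20.8% were higher and 14.4% lower at day 3, and 22.7% and 12.7% at day 14. Abcg1, a sterol exporter induced by the oxysterol receptors LXR, was at 19.8 TPM in vehicle at day 3, 284.2 and 342.7 under gefitinib, 80.9 in vehicle at day 21, 69.4 with DC101, 117.2 with 4H2 and 103.5 with both antibodies. Its relative Abca1 was at 18.9, 188.1, 300.9, 75.1, 74.6, 136.7 and 136.9 TPM, the same broad order. After withdrawal 1 was higher and 6 lower, beside 7.62% higher and 7.89% lower of all genes. Mylip, an LXR-induced ubiquitin ligase, was then at 26.5 against 95.4 TPM.

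In the antibody comparisons this list differed less. With DC101 none of the 13 was higher and 1 lower, Ch25h at 9.4 against 24.6 TPM. With 4H2 4 were higher, among them Mylip, Nr1h3, which encodes an LXR, and Cyp27a1, a sterol hydroxylase, and 2 lower, Ch25h and Npc2. With both antibodies 3 were higher and 3 lower. Soat1, which esterifies cholesterol for storage, was highest in vehicle at day 3 at 264.9 TPM and lay between 48.4 and 143 elsewhere, so it went opposite to the exporters under gefitinib. Macrophages express many of these genes, and the 10 macrophage markers summed to 1438.8 TPM in vehicle at day 3, 12194 and 13649.4 under gefitinib, 6067.5 in vehicle at day 21, 5533.9 with DC101, 9671 with 4H2 and 7467.2 with both antibodies. The 10 fibroblast markers had their lowest sum, 2441.9 TPM, in the same vehicle library and their highest, 24824, at day 3 of gefitinib. The part of macrophages in the exporter differences was not tested.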

How the data were processed

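Expression in 7 tumor libraries was taken from 1 table of TPM values that the authors deposited, rounded to 1 decimal and summing to about 1000000 per library. Libraries were directional and depleted of ribosomal RNA, per the labels' protocols. The submitters' processing notes name the build GRCm38.p6. The sources used here do not give the aligner, counter or annotation. The 13 mitochondrially encoded protein genes are listed at 0 in every library, so a value of 0 is given only as listed at 0.

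Differences were log2((TPM + 1) / (TPM + 1)) for 13997 genes with a mean of at least 1 TPM, called at 2-fold, in 6 main and 4 secondary comparisons (Python 3.11.15, pandas 2.3.3). The calculation was checked on simulated data without noise, which cannot show how reliable a call between 2 libraries is. Gene positions and promoters are from RefSeq, GRCm38.p6. 14 of the 29 genes overlap another gene there, 4 of them (Fdft1, Tm7sf2, Srebf1 and Acaca) a protein-coding one, and reads of such pairs cannot be told apart if counting ignored strand, which the sources used here do not give. The 29 genes and all lists were chosen with earlier results of these data known. All 29 are accounted for. Of the other pathway lists up to 3 genes in each direction at 10 TPM or more could be named per comparison, and some that this allows, with the counts of the list of sterol supply genes, are not reported here. Acat3, Scd3, Scd4, Car3, Retn, Lep, Cidec, Lipe, Pparg, Lpl, Plin4, Scap, Awat1, Awat2, Mc5r and Ucp1, and the adipocyte sum without Car3, were chosen after their values were seen.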

Additional observations from a re-analysis of the deposited data

How the results depend on the processing

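The branch medians and the counts of members at least 2-fold apart were recomputed under 9 alternatives: pseudocounts of 0.1 and 5, no filter, a mean of at least 5 TPM, rescalings by the median of ratios over 7340 genes, without mitochondrial, histone, hemoglobin, ribosomal and the 20 most abundant genes, or without muscle and adipocyte markers, means rather than medians over a branch, and another membership (the 5 other genes added to the sterol branch, Scd1 and Scd2 left out of the fatty acid branch). None of the 204 values reversed a called direction, moved a median by over 1.5-fold or a count by over 1.5 times. The settings of no filter and of a mean of at least 5 TPM could not change these values. The lowest mean of a member was 5.171 TPM, for Hsd17b7, so both kept every member. Sterol medians ran from -1.77 to -1.31 in each gefitinib comparison, from 1.18 to 1.57 after withdrawal, from -0.25 to -0.20 with DC101, from -1.81 to -1.40 with 4H2 and from -1.45 to -1.13 with both antibodies. The fatty acid median with DC101 lay between -0.03 and 0.04, so its sign is not fixed. The signs of Sc5d, Acly and Fasn with DC101 and of Srebf1 with both antibodies also changed with a rescaling. Of the members called 2-fold lower with 4H2, Mvk, Fdft1, Ebp, Dhcr7 and Insig1 fell short of it under the median of ratios, as did Hmgcs1, Tm7sf2 and Acaca with both antibodies. Without muscle and adipocyte markers Mvk, Dhcr7 and Insig1 (4H2) and Acaca (both antibodies) did so too. In the other comparisons a rescaling moved 1 member each across 2-fold: Acaca at day 3 and Dhcr7 at day 14 of gefitinib, and Pmvk after withdrawal. No paired analysis was possible because each group is 1 library. No library could be left out within a comparison of 2, and unknown depth leaves the error of low values, such as Hsd17b7 at 1.6 TPM, without an estimate.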
